A study of Mus musculus with 24 samples.

Results

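The 38 interferon response genes examined here were chosen by name, and every probe annotated to them on a mouse whole genome bead array was read in distal lung tissue. Of these genes 37 were represented, by 73 of the 45281 probes of the array, and no probe was annotated to Ifi44. A total of 52 probes of 30 genes passed a filter on dim signals, which kept the 22640 probes (50%) with a mean log2 signal of at least 6.71, and were tested. The tissue came from female C57BL/6 mice aged 12.5 weeks, with 6 mice in each of 4 groups. Saline controls received physiological saline s.c. and vehicle (Tween80, 2.5%) p.o. every day. BLM-treated mice received the cytotoxic antibiotic bleomycin (BLM, 50 IE per dose) s.c. 3 times a week for 2 weeks together with the vehicle. The remaining groups, EXT5 and EXT9, received the same BLM injections and, in place of vehicle alone, 30 mg/kg of the 5-HT2B receptor antagonist EXT5 or EXT9 p.o. every day. No group received a compound without BLM, and repeated s.c. dosing is a systemic model with mild lung changes.

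Interferons are secreted by cells that sense foreign or misplaced nucleic acid. Type I and type III interferons signal through receptor-bound kinases to a complex that contains STAT2 and IRF9 and binds the interferon-stimulated response element (ISRE), while the response to interferon gamma runs through the gamma-activated site (GAS). Their target genes encode the nucleic acid sensors themselves, enzymes and RNA-binding proteins that block viral growth, the ubiquitin-like protein ISG15 with its machinery, GTPases that act on intracellular pathogens, and the parts of the cell that prepare peptides for MHC class I. In the lung, epithelial cells, macrophages and plasmacytoid dendritic cells are known sources of interferon, and nearly every cell type responds to it.

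The deposited signals fell into 2 sets of arrays, each sharing 1 sorted distribution of values. They are called runs below. In the first run were 3 mice of the saline group and 3 of the BLM group. The other 18 mice, among them every EXT5 and EXT9 mouse, were in the second. The run was therefore a term in each comparison, and 6 of 51 interferon response probes differed between runs, against 34.5% of all probes. Surfactant protein C, which marks alveolar type 2 cells, lay between 13.73 and 14.63 in all 24 mice, and the club cell gene Scgb1a1 lay between 13.79 and 14.62. In 5 stretches of the array, 602 probes in all, first-run values were taken to belong to other probes. The stretches ran between 203 probes whose run means, in saline and BLM-treated mice, differed by more than 1.5 (log2) beyond the median difference. Probes between these were included by position, and all 602 are called displaced below. One displaced probe was ILMN_2612776 of Iigp1, a GTPase, which read 8.05 to 8.50 in the first run and 6.49 to 6.76 in the second. This probe passed the filter on dim signals only through the first run, and Iigp1 is treated as not measured above background. Of the 38 genes, 29 thus gave usable values, from 51 probes.

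Promoter windows with a match to either element are shown for 4 called members and for Isg15, which was called in 0 comparisons, because they show the elements through which interferon is known to act. Each window spans 250 bases before to 50 bases after a transcription start, taken from RefSeq (GRCm38.p6), and 31 of the 38 genes had one. An ISRE-like motif (GAAANNGAAA, either strand) was present in 15 of these 31 genes (48.4%), compared with 3.99% of 27025 genes in the same annotation. The GAS-like motif TTCNNNGAA, which reads the same on both strands, was present in 10 of 31 (32.3%), compared with 9.55% of genes. Capitals mark the matches named here for each gene. Ifit3 (chr19:34583279-34583578, plus strand) had 2 ISRE matches between 156 and 113 bases before the start. Its neighbour Ifit2 had no ISRE match in either of its windows, and a GAS match in 1 (chr19:34550444-34550743, plus strand). Irf1 (chr11:53769764-53770063, plus strand) had a GAS match from 90 to 82 bases before the start. Isg15 (chr4:156200769-156201068, minus strand) held 3 overlapping ISRE matches from 78 to 57 bases before the start. In Eif2ak2 (chr17:78882523-78882822, minus strand) an ISRE match lay just after the start, and a further GAS match from 178 to 170 bases before the start is left in lower case. Of the other called members, Trim25 and Tap1 held neither motif in their windows, Isg20 held a GAS match in 1 of its windows, from 73 to 65 bases before the start, and Usp18 had no window. A match is a stretch of letters and not a measured binding site.
Ifit3: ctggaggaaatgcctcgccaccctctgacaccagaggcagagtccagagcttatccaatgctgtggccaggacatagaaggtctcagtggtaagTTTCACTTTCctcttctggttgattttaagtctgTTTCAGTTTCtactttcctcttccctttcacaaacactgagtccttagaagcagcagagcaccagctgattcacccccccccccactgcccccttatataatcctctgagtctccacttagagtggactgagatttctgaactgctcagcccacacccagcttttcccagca
Ifit2: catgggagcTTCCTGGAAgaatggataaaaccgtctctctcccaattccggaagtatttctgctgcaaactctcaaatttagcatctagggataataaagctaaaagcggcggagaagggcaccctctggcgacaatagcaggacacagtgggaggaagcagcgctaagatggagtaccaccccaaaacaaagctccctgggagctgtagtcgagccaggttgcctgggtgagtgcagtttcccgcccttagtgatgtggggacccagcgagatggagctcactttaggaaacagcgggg
Irf1: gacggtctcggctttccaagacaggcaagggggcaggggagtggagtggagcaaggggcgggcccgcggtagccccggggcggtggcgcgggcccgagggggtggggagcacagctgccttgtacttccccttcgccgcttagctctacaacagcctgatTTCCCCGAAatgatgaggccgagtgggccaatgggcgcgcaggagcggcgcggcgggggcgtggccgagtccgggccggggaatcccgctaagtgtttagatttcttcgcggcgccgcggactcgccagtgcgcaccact
Isg15: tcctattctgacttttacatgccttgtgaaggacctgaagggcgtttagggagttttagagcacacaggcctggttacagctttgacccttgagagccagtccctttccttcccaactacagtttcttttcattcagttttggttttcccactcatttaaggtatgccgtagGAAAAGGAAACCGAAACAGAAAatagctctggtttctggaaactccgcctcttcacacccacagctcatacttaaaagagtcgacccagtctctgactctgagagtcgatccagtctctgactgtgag
Eif2ak2: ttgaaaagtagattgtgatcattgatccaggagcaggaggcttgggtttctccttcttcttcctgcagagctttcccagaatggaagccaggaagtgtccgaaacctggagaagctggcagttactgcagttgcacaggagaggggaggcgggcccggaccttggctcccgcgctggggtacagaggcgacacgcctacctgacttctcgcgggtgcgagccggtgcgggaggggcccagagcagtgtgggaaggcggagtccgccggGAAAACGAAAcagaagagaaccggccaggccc

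The median difference of the 51 usable probes lay between -0.05 and 0.03 (log2) in all 6 comparisons. A shift of the genes as a set was not tested. A probe was called where its difference passed an adjusted p of 0.05 in limma, with adjustment over all 22640 probes. After BLM alone, 0 of the 51 usable probes were called relative to saline controls, where 0.473% of all probes were called, and 6 of 51 had an unadjusted p under 0.05 (11.8%, compared with 11.9% of all probes). The median difference of the 51 probes was 0.03 on the log2 scale. Between EXT5 and saline controls 1 probe was higher and 4 were lower, where 10.9% of all probes were called, 5.32% higher and 5.63% lower. Between EXT9 and saline controls 2 were higher and 4 lower, where 16.1% of all probes were called, 7.78% higher and 8.37% lower. Relative to BLM-treated mice, EXT5 had 1 probe higher and 3 lower, against 4.29% of all probes (2.35% higher, 1.94% lower). The corresponding counts for EXT9 were 1 higher and 2 lower, against 5.11% of all probes (2.79% higher, 2.32% lower). The medians of these 4 comparisons lay between -0.05 and 0.00. Both compounds were compared with the same saline and BLM-treated mice, so that their comparisons are not independent. Because whole tissue was measured, fewer cells of a type and less RNA per cell cannot be told apart.

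**Figure D1:**
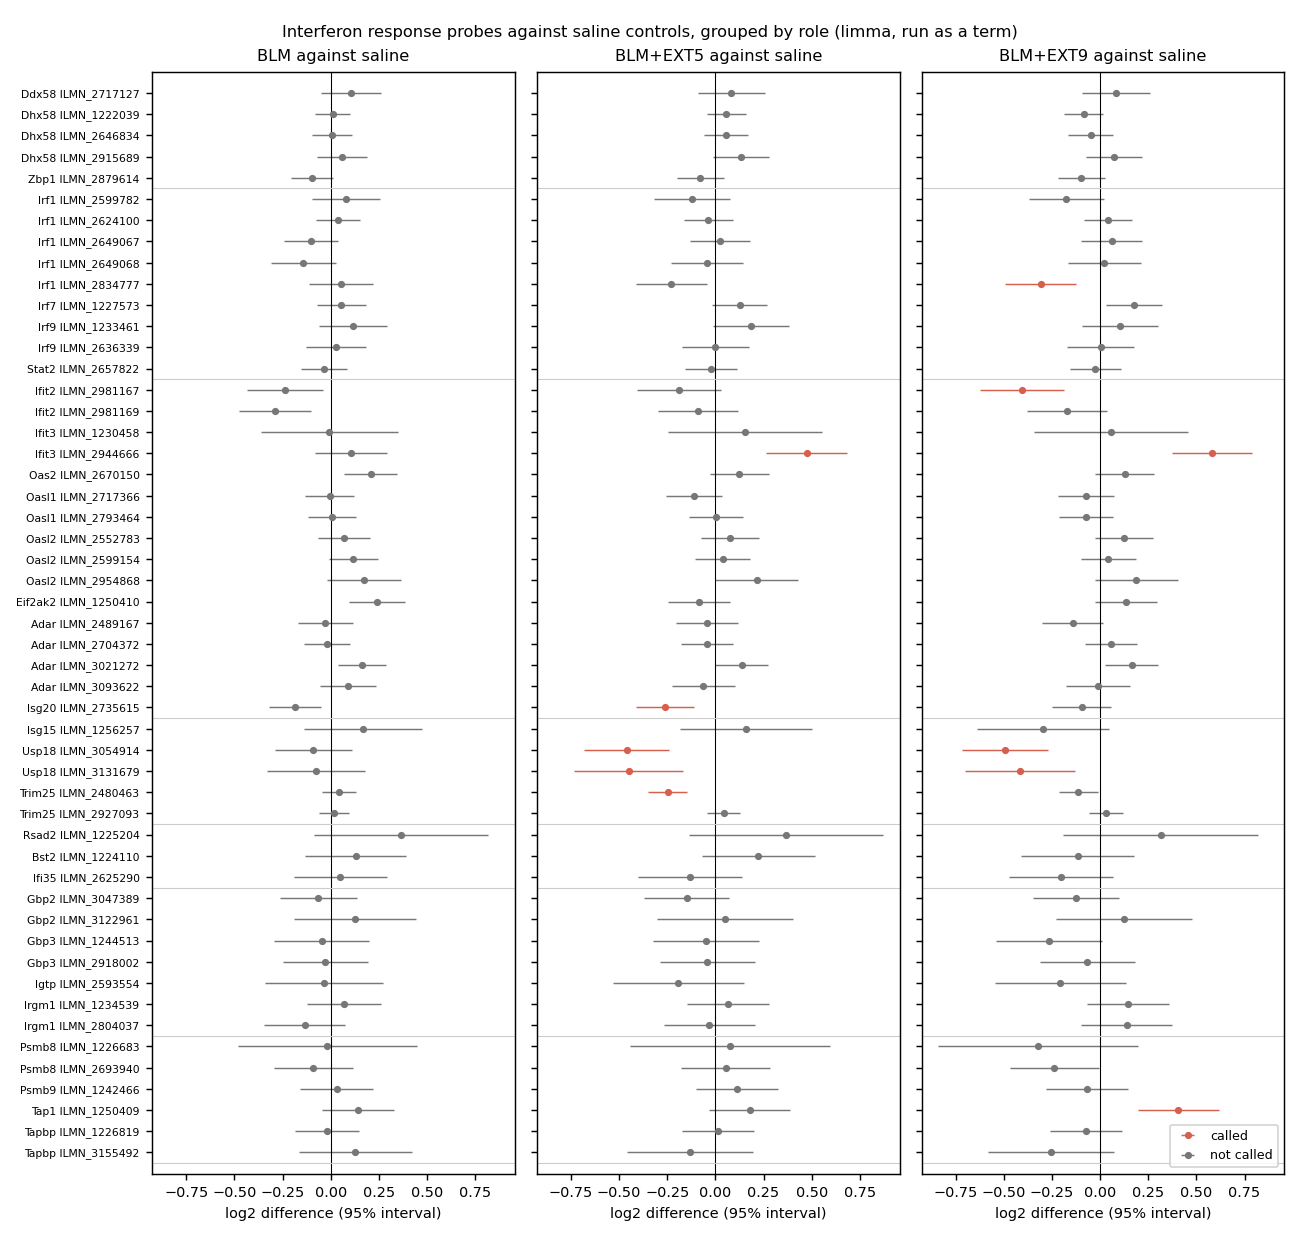
Log2 differences of 51 interferon response probes against saline controls (x axis, with 95% intervals from limma, run as a term), one row per probe, in order of role from sensors at the top to antigen processing at the bottom. Red marks called probes: none after BLM alone, 5 with EXT5 and 6 with EXT9, and most intervals in each panel include 0.

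Marker genes of other cell types, each read from 1 probe, moved with both compounds, and their part in the results below was not tested. Relative to saline controls, 5 of 7 macrophage markers were called higher with EXT5 and 5 of 7 with EXT9, with median differences of 0.67 and 0.49. Over the mice, the mean macrophage marker level relative to the mean of all mice was -0.76 to 0.13 in saline controls, -0.40 to 0.38 after BLM, 0.13 to 0.41 with EXT5 and -0.10 to 0.36 with EXT9. Smooth muscle markers were lower, 6 of 7 with either compound (medians -0.74 and -0.67), as were 7 of 8 ciliated cell markers (medians -0.67 and -0.58). Alveolar type 2 markers were higher in 6 of 10 with EXT5 (1 lower) and in 5 of 10 with EXT9. Relative to BLM-treated mice, 1 of 7 macrophage markers was called higher with EXT5 and 0 of 7 with EXT9. In that comparison smooth muscle markers were lower in 6 and 3 of 7, and ciliated cell markers in 2 and 1 of 8. Alveolar type 2 markers were higher there in 5 and 3 of 10. Of the markers of T cells (6), NK cells (6), B and plasma cells (4) and plasmacytoid dendritic cells (5), 0 were called with either compound relative to saline controls. Saline control 6 stood apart in these lists. Of 15 lists of cell type markers it deviated from its group and run the furthest of all mice in 8, with 0.78 for neutrophils, 0.60 for macrophages, 0.55 for T cells, -0.72 for ciliated cells and -0.78 for smooth muscle. It was also the highest or the lowest saline control in 7 of the 9 interferon response probes called below, and results that rest on it are given without it. Siglech, which defines plasmacytoid dendritic cells, read 6.96 to 7.91.

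Sensors of viral nucleic acid showed no called difference. RIG-I (Ddx58) and LGP2 (Dhx58) are helicases that detect viral RNA, and Zbp1 binds left-handed nucleic acid. The MDA5 gene Ifih1 had no probe above the filter. None of the 5 tested probes was called in any comparison. Their mean signals, 6.87 to 7.37, were not far above the filter at 6.71. The smallest unadjusted p among them was that of Dhx58 probe ILMN_1222039 between the compounds, where its lowest, median and highest log2 signals were 7.11, 7.21 and 7.28 with EXT5 and 6.98, 7.06 and 7.17 with EXT9. Saline controls gave 7.07, 7.14 and 7.20 and BLM-treated mice 7.05, 7.18 and 7.23. All 4 groups overlapped, and the difference between EXT9 and EXT5 was -0.14 ± 0.04 (SE, adjusted p = 0.15 by limma).

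Among the transcription factors, Irf1 was lower with EXT9. IRF1 is induced mainly by interferon gamma and turns on antigen-processing genes. Probe ILMN_2834777 had lowest, median and highest log2 signals of 11.53, 11.71 and 12.06 in saline controls, 11.64, 11.79 and 11.97 after BLM, 11.36, 11.54 and 11.78 with EXT5 and 11.30, 11.53 and 11.58 with EXT9. All 6 EXT9 mice lay below all 6 BLM-treated mice and below the 3 second-run saline controls, whereas 3 of them lay below every saline control. The difference of EXT9 was -0.31 ± 0.09 against saline controls (adjusted p = 0.021, limma) and -0.36 ± 0.09 against BLM-treated mice (adjusted p = 0.021). With EXT5 the same probe differed by -0.23 and -0.28 (adjusted p = 0.10 and 0.070, limma), and its difference from BLM passed with array weights (adjusted p = 0.036) and without saline control 2 or 6 or EXT5 mouse 5 (adjusted p = 0.041 to 0.050). The other 4 Irf1 probes passed in 0 of the comparisons, and over the 5 probes the difference of EXT9 ranged from -0.31 to 0.06 against saline controls and from -0.36 to 0.16 against BLM-treated mice. Probe ILMN_2649067 was called higher than after BLM where the run was left out of the model (0.24, adjusted p = 0.044, limma). Without saline control 6, a mouse whose Irf1 signal was the highest of all, the call against saline controls was lost (-0.22, adjusted p = 0.084), and the call against BLM was lost without BLM-treated mouse 4 or 6 (adjusted p = 0.054 to 0.072). In the second run alone both differences kept their size (-0.33 and -0.34) with adjusted p = 0.063 and 0.093, and with the compared groups alone the adjusted p against saline controls was 0.072 (limma).

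Among the factors that carry the type I signal, Stat2 (ILMN_2657822) and Irf9, the DNA-binding part of the complex, were not called in any comparison. Stat2 medians were 7.19, 7.22, 7.17 and 7.15 in saline, BLM, EXT5 and EXT9 mice, and its differences lay between -0.04 and 0.01. Irf9 probe ILMN_1233461 had medians of 8.91, 9.12, 9.25 and 9.20 in the same order, and its largest difference was 0.19 ± 0.10 for EXT5 against saline controls (adjusted p = 0.25, limma), which passed with no term for the run (0.28, adjusted p = 0.047). Irf7, which amplifies type I interferon production, read 7.06 to 7.23 in the group medians and differed by 0.18 ± 0.07 between EXT9 and saline controls (adjusted p = 0.087, limma), which passed only without EXT5 mouse 2 (adjusted p = 0.035).

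The largest rise among the called probes was that of Ifit3, an RNA-binding protein that stabilises the IFIT complex. Probe ILMN_2944666 had lowest, median and highest log2 signals of 10.04, 10.17 and 10.64 in saline controls and 10.10, 10.37 and 10.51 after BLM. The corresponding values were 10.50, 10.85 and 11.08 with EXT5 and 10.70, 10.94 and 11.00 with EXT9. All 6 EXT9 mice lay above every saline control and every BLM-treated mouse, whereas 4 EXT5 mice lay above all saline controls and 5 above all BLM-treated mice. Relative to saline controls, Ifit3 was higher by 0.47 ± 0.10 with EXT5 (1.39-fold, adjusted p = 0.0047, limma) and by 0.58 ± 0.10 with EXT9 (adjusted p = 0.00082). Relative to BLM-treated mice, it was higher by 0.37 ± 0.10 with EXT5 (adjusted p = 0.041, limma) and by 0.48 ± 0.10 with EXT9 (adjusted p = 0.0094). BLM alone differed from saline controls by 0.10 ± 0.09 (adjusted p = 0.73). The second Ifit3 probe, ILMN_1230458, spanned 6.89 to 8.19 across the mice and was not called in any comparison, with differences from -0.10 to 0.16.

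The EXT9 calls of Ifit3 were retained under every alternative tried, with differences against saline controls from 0.52 to 0.68. Against BLM-treated mice, the EXT5 call was lost without saline control 1 or 4, BLM-treated mouse 1, 4, 5 or 6, or EXT5 mouse 1, 2, 3 or 5 (difference 0.32 to 0.40, adjusted p = 0.051 to 0.14, limma). It was also lost in the second run alone, with no filter on dim probes, with the compared groups alone and with a replicate block (difference 0.37 to 0.43, adjusted p = 0.057 to 0.088, limma). With the compared groups alone, the EXT5 difference from saline controls was 0.41 (adjusted p = 0.090).

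Ifit2, the neighbour of Ifit3 and a member of the same protein family, was lower with EXT9 than in saline controls. Probe ILMN_2981167 had lowest, median and highest signals of 8.28, 8.54 and 8.92 in saline controls, 8.09, 8.34 and 8.52 after BLM, 8.20, 8.35 and 8.49 with EXT5 and 7.92, 8.17 and 8.32 with EXT9. Of the EXT9 mice, 5 lay below all saline controls and 2 below all BLM-treated mice. EXT9 differed from saline controls by -0.40 ± 0.11 (0.756-fold, adjusted p = 0.012, limma), while BLM alone differed by -0.24 ± 0.09 (adjusted p = 0.29) and EXT5 by -0.19 ± 0.11 (adjusted p = 0.31). With the compared groups alone the EXT9 difference was -0.44 (adjusted p = 0.066, limma). The EXT9 call against saline controls was kept whichever mouse was left out. Over all alternatives this difference ranged from -0.49 to -0.28. The second probe, ILMN_2981169, differed by -0.29, -0.09 and -0.17 in BLM, EXT5 and EXT9 mice and was not called. Between EXT9 and BLM-treated mice the first and second probes differed by -0.17 ± 0.11 and 0.12 ± 0.10 (adjusted p = 0.36 and 0.53, limma). Ifit1, the cap-binding member of the family, stayed at background, with 6.34 to 6.76 across the 24 mice.

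**Figure D2:**
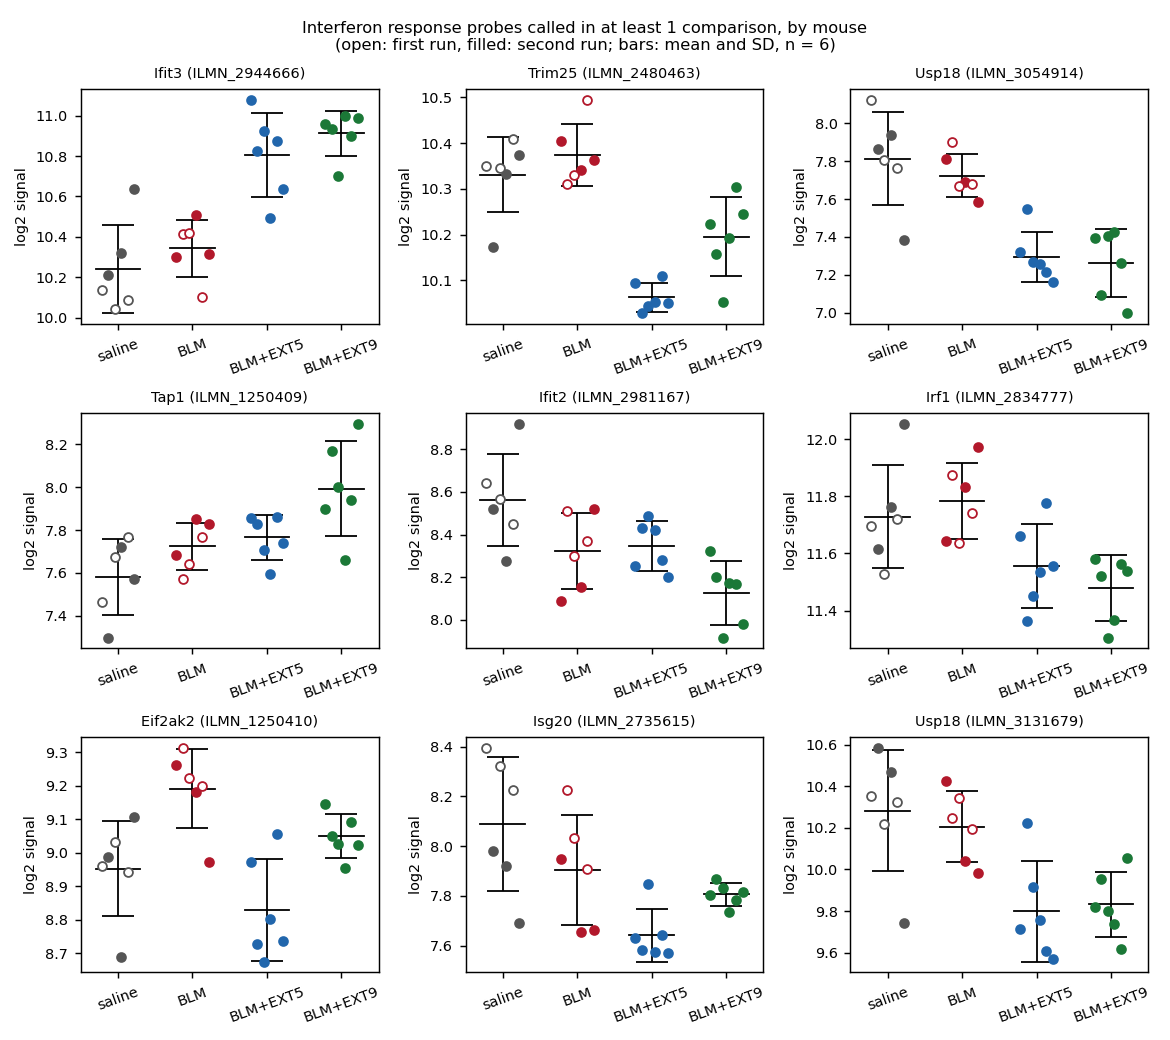
Log2 signal of the 9 interferon response probes called in at least 1 comparison, one point per mouse in the 4 groups, with open points for the first run and filled points for the second and with bars for the mean and SD (n = 6). The means of Ifit3 and Tap1 are highest in the EXT9 group, whereas the highest single Ifit3 value, 11.08, is that of an EXT5 mouse. Both Usp18 probes are low in both compound groups, and the 6 EXT5 values of Trim25 lie between 10.03 and 10.11, below all saline and BLM values.

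With EXT5, Eif2ak2 differed from its level after BLM and Isg20 from its level in saline controls. Eif2ak2 encodes PKR, the kinase that halts translation on double-stranded RNA. Its lowest, median and highest signals were 8.69, 8.97 and 9.11 in saline controls, 8.97, 9.21 and 9.31 after BLM, 8.67, 8.77 and 9.06 with EXT5 and 8.95, 9.04 and 9.15 with EXT9. The groups overlapped in part, and 4 of the 6 EXT5 mice lay below every BLM-treated mouse. The difference of EXT5 from BLM was -0.32 ± 0.08 (adjusted p = 0.023, limma), and that from saline controls was -0.08 ± 0.08 (adjusted p = 0.58). BLM alone differed from saline controls by 0.24 ± 0.07, which had the smallest adjusted p of the 51 probes in that comparison (0.128, limma), and which passed without saline control 6 (0.28, adjusted p = 0.028) and with weights for array quality (0.27, adjusted p = 0.032). The EXT5 call was lost without BLM-treated mouse 1 or 4 (adjusted p = 0.063 to 0.086) and in the second run alone or the compared groups alone (-0.31, adjusted p = 0.11 and 0.069).

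Isg20, an exonuclease that degrades single-stranded RNA, was lower with EXT5 than in saline controls. Its signal differed between the runs, with 8.23 to 8.40 in the 3 first-run and 7.69 to 7.98 in the 3 second-run saline controls. The EXT5 mice read 7.57 to 7.85 with a median of 7.61, and 5 of them lay below all saline controls and all BLM-treated mice. The EXT9 mice read 7.73, 7.81 and 7.87 and overlapped both. The difference of EXT5 from saline controls was -0.26 ± 0.07 (adjusted p = 0.023, limma), and that of BLM alone was -0.18 ± 0.07 (adjusted p = 0.23). Against BLM-treated mice, EXT5 differed by -0.08 ± 0.07, which was not called (adjusted p = 0.62, limma). Leaving out saline control 2 or 4 ended the EXT5 call (adjusted p = 0.068 to 0.088), as did the second run alone or the compared groups alone (-0.22, adjusted p = 0.11 and 0.14), whereas leaving out saline control 6 gave a call for BLM alone (-0.23, adjusted p = 0.048).

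The oligoadenylate synthetases, which activate the RNA-degrading enzyme RNase L, were not called in any comparison. Oas1a and Oas3 had no probe above the filter. Oas2 (ILMN_2670150) read 6.72, 6.81 and 7.00 in saline controls and 6.91, 7.07 and 7.15 after BLM, with 6.80 to 7.17 with EXT5 and 6.83 to 7.11 with EXT9. Its difference of 0.21 ± 0.07 between BLM and saline controls did not pass (adjusted p = 0.18, limma). The RNA-editing enzyme Adar had 4 tested probes, and 0 of them were called in any comparison, with differences of EXT9 from saline controls between -0.14 and 0.16.

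In the ISG15 system, Usp18 was lower with both compounds. Usp18 is the protease that removes ISG15 from proteins and also holds down signalling from the type I receptor. Probe ILMN_3054914 read 7.39, 7.83 and 8.12 in saline controls, 7.58, 7.69 and 7.90 after BLM, 7.16, 7.27 and 7.54 with EXT5 and 7.00, 7.33 and 7.43 with EXT9 (lowest, median and highest). All mice of both compound groups lay below all BLM-treated mice, and 5 EXT5 and 3 EXT9 mice lay below all saline controls, of which number 6 was the lowest. The differences from saline controls were -0.46 ± 0.11 with EXT5 (0.726-fold, adjusted p = 0.0075, limma) and -0.49 ± 0.11 with EXT9 (0.710-fold, adjusted p = 0.0039). The differences from BLM-treated mice were -0.37 ± 0.11 with EXT5 (adjusted p = 0.0499, limma) and -0.40 ± 0.11 with EXT9 (adjusted p = 0.031). BLM alone differed from saline controls by -0.09 ± 0.10 (adjusted p = 0.79).

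The second Usp18 probe, ILMN_3131679, moved in the same direction. It read 9.74, 10.34 and 10.59 in saline controls, 9.98, 10.22 and 10.43 after BLM, 9.57, 9.74 and 10.22 with EXT5 and 9.62, 9.81 and 10.05 with EXT9. The groups overlapped, and saline control 6 was again the lowest control. With either compound 5 mice lay below all BLM-treated mice, and 3 EXT5 and 2 EXT9 mice lay below all saline controls. Against saline controls its differences were -0.45 ± 0.14 with EXT5 (adjusted p = 0.036, limma) and -0.42 ± 0.14 with EXT9 (adjusted p = 0.041), and against BLM-treated mice -0.37 and -0.34 (adjusted p = 0.12 and 0.15), which passed without saline control 6 (adjusted p = 0.020 and 0.031, limma) and with array weights (adjusted p = 0.017 and 0.0495). In the second run alone, the calls of this probe against saline controls were lost (adjusted p = 0.13 for either compound, limma), as they were with no filter on dim probes or the compared groups alone (adjusted p = 0.066 to 0.17). The first probe kept its calls against saline controls whichever mouse was left out, but with the compared groups alone the adjusted p was 0.088 for EXT5 and 0.076 for EXT9 (limma). In the second run alone its differences from saline controls had adjusted p = 0.051 with EXT5 and 0.031 with EXT9 (limma), and those from BLM-treated mice 0.10 and 0.066. Its call for EXT5 against BLM was held in 4 of 24 such fits (adjusted p = 0.051 to 0.16 in the others, and 0.051 without the displaced probes) and its call for EXT9 against BLM in 18 of 24, being lost without BLM-treated mouse 1, 4 or 6 or EXT9 mouse 2, 5 or 6 (adjusted p = 0.051 to 0.12). For the second probe the EXT5 call was lost without saline control 1, 2 or 4, BLM-treated mouse 1 or EXT5 mouse 1, 4, 5 or 6 (adjusted p = 0.051 to 0.17), and the EXT9 call without saline control 1, 2, 4 or 5, BLM-treated mouse 1, 2 or 5 or EXT9 mouse 1, 3, 4 or 5 (adjusted p = 0.051 to 0.16).

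Trim25, the ubiquitin ligase that activates RIG-I, was lower with EXT5 and varied least between mice among the 29 genes. Probe ILMN_2480463 read 10.17, 10.35 and 10.41 in saline controls, 10.31, 10.35 and 10.50 after BLM, 10.03, 10.05 and 10.11 with EXT5 and 10.05, 10.21 and 10.30 with EXT9. The EXT5 mice did not overlap with saline controls or BLM-treated mice, and the EXT9 mice did not overlap with BLM-treated mice, whereas 2 EXT9 mice lay below all saline controls. EXT5 differed from saline controls by -0.25 ± 0.05 (0.843-fold, adjusted p = 0.0028, limma) and from BLM-treated mice by -0.29 ± 0.05 (0.818-fold, adjusted p = 0.0025), and both calls were retained under every alternative tried. EXT9 differed by -0.11 ± 0.05 and -0.16 ± 0.05 (adjusted p = 0.11 and 0.060, limma). These EXT9 differences passed without saline control 2 (adjusted p = 0.039 and 0.028, limma), and the one against BLM also without BLM-treated mouse 2 or EXT9 mouse 5 (adjusted p = 0.049 and 0.044), with array weights or with a replicate block (adjusted p = 0.038 in either). The second probe, ILMN_2927093, whose mean signal of 6.79 was near the filter, differed from saline controls by 0.02, 0.04 and 0.03 in BLM, EXT5 and EXT9 mice and was not called.

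Isg15, the ubiquitin-like modifier, was the most spread of the 3 genes with EXT5. Probe ILMN_1256257 read 7.86, 8.05 and 8.38 in saline controls, 7.92, 8.29 and 8.61 after BLM, 7.85, 8.42 and 9.19 with EXT5 and 7.78, 7.95 and 8.21 with EXT9. The EXT5 mice enclosed the whole range of the controls. Isg15 was called in 0 of the 6 comparisons, with a difference of EXT9 from BLM-treated mice of -0.47 ± 0.17 (adjusted p = 0.099, limma), which passed without EXT5 mouse 2 (adjusted p = 0.033), with the compared groups alone (adjusted p = 0.021) and with a replicate block (adjusted p = 0.038).

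The remaining antiviral effectors were not called. Rsad2, whose product viperin makes a chain-terminating nucleotide, had one of the widest ranges, with lowest, median and highest signals of 7.99, 8.37 and 9.05 in saline controls, 8.27, 8.82 and 9.18 after BLM, 8.22, 9.14 and 9.63 with EXT5 and 8.33, 9.03 and 9.57 with EXT9. Its differences from saline controls were 0.36 ± 0.22, 0.37 ± 0.24 and 0.31 ± 0.24 for BLM, EXT5 and EXT9 (adjusted p = 0.56, 0.40 and 0.41, limma). Bst2, which tethers budding virus to the cell, read 8.56, 8.66 and 9.04 in saline controls, 8.42, 8.79 and 9.24 after BLM, 8.68, 9.10 and 9.21 with EXT5 and 8.39, 8.64 and 9.09 with EXT9. Its BLM-treated mice split by run, with 8.42 to 8.67 in the first and 8.92 to 9.24 in the second, and the difference between BLM and saline controls was 0.13 over both runs and 0.45 in the second (adjusted p = 0.76 over both, limma). Mx1, Mx2 and Xaf1 had no probe above the filter. The 9 probes of the 7 genes with no tested probe spanned 6.34 to 6.97, and 0 of the 21 dim probes were called when the filter was lifted.

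Interferon-inducible GTPases were not called. Irgm1 acts on the membranes around intracellular pathogens. Probe ILMN_2804037 read 11.99, 12.32 and 12.47 in saline controls, 11.95, 12.14 and 12.29 after BLM, 11.92, 12.09 and 12.41 with EXT5 and 11.95, 12.29 and 12.71 with EXT9. The groups overlapped, and EXT9 differed from BLM-treated mice by 0.27 ± 0.11 (adjusted p = 0.16, limma). Gbp2, a guanylate-binding protein (ILMN_3122961), ranged from 10.24 to 11.43 within the saline controls alone, more than in any other group. Over the 7 usable GTPase probes, the median difference from saline controls was -0.03 after BLM, -0.04 with EXT5 and -0.07 with EXT9.

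Of the antigen-processing genes, Tap1 was higher with EXT9. TAP1 forms one side of the pump that carries peptides into the endoplasmic reticulum. Probe ILMN_1250409 read 7.30, 7.62 and 7.77 in saline controls, 7.57, 7.73 and 7.85 after BLM, 7.60, 7.78 and 7.86 with EXT5 and 7.66, 7.97 and 8.30 with EXT9. Of the EXT9 mice 5 lay above all saline controls and all BLM-treated mice. The difference of EXT9 from saline controls was 0.40 ± 0.10 (1.32-fold, adjusted p = 0.0096, limma) and that from BLM-treated mice 0.26 ± 0.10 (adjusted p = 0.13). Without saline control 2, whose Tap1 signal was the lowest, the difference was 0.31 (adjusted p = 0.051), and with array weights it was 0.30 (adjusted p = 0.053). The call was also lost with the compared groups alone (0.46, adjusted p = 0.069, limma). The immunoproteasome subunits Psmb8 and Psmb9 and the peptide loader Tapbp were not called. The median over the 6 antigen-processing probes was -0.16 for EXT9 against saline controls.

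EXT9 and EXT5 were given at the same dose and for the same time, and this 1 pair of compounds was compared directly. Of the 51 probes, 0 were called (0.446% of all probes were called), and 10 had an unadjusted p under 0.05 (19.6%, compared with 12.9% of all probes). The smallest adjusted p was 0.15 (limma). The largest difference was that of Isg15, -0.46 with a 95% interval from -0.76 to -0.15 (adjusted p = 0.17, limma). Next came Psmb8 (ILMN_1226683) at -0.40 (interval -0.86 to 0.07) and Bst2 at -0.34 (-0.60 to -0.08, adjusted p = 0.23). For Psmb8, EXT9 mouse 6 read 8.61 and the next lowest EXT9 mouse 9.70, and the medians were 10.10 with EXT5 and 9.86 with EXT9. In the opposite direction, Tap1 was at 0.23 (0.04 to 0.42), Eif2ak2 at 0.22 (0.08 to 0.36, adjusted p = 0.15) and Trim25 at 0.13 (0.04 to 0.22, adjusted p = 0.17). Ifit3 differed by 0.11 (interval -0.08 to 0.29) and Usp18 (ILMN_3054914) by -0.03 (-0.23 to 0.17). For 47 of 51 probes the interval lay within 0.5 of 0 on either side. The absence of a call does not show that the compounds acted alike.

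**Figure D3:**
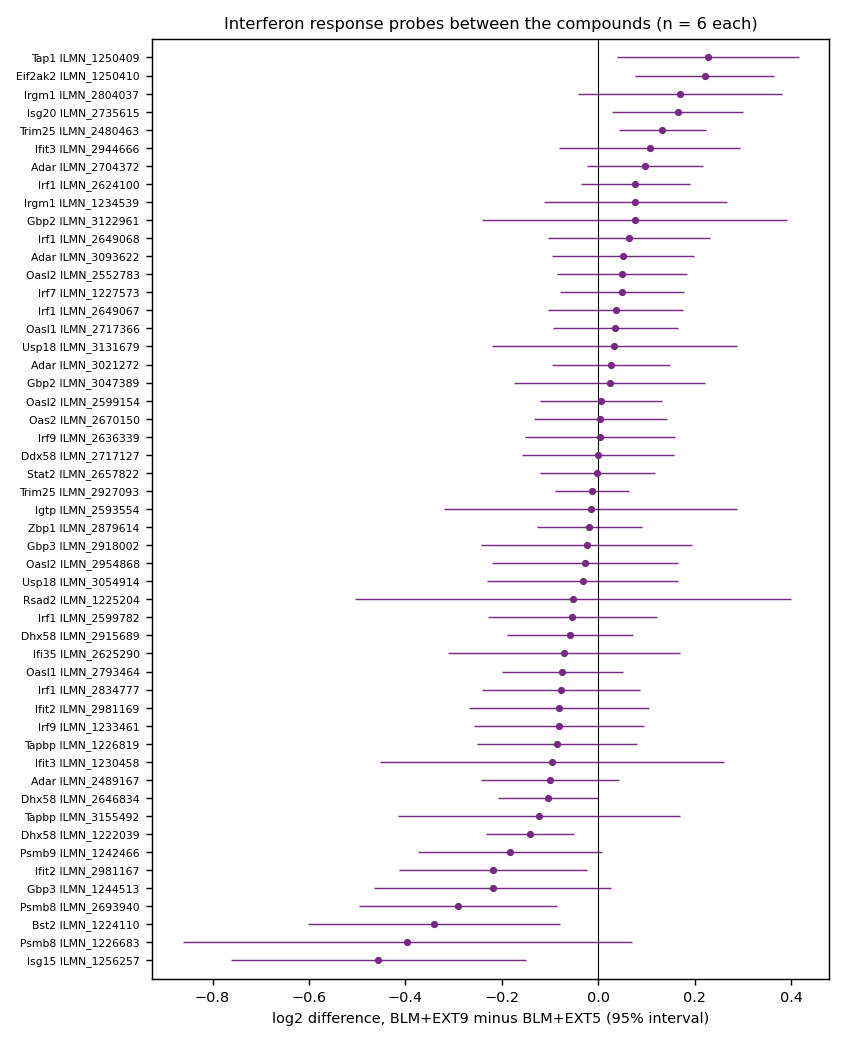
Log2 differences of 51 interferon response probes between EXT9 and EXT5 mice (x axis, EXT9 minus EXT5, with 95% intervals from limma, n = 6 each), ordered by size. Isg15 lies lowest at -0.46 and Tap1 highest at 0.23, and no probe passed the adjusted threshold.

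Interferon response genes, each represented by its brightest probe, varied more between mice of the same group than most genes did. After the means of group and run were removed, the median SD of the 29 genes was 0.165 on the log2 scale, compared with 0.118 over 11820 named genes. Psmb8 (0.420) and Rsad2 (0.408) varied most, above 98.6% of genes, whereas Trim25 (0.0699) varied less than most. In Psmb8, EXT9 mouse 6 alone deviated by -1.18. The genes also moved together to some extent. The mean correlation between pairs of members across the 24 arrays was 0.149, compared with 0.002 between pairs of all genes, and 288 of 406 pairs (70.9%) were above 0. Values of 1 array share its RNA and its normalization, and these correlations are a description. The first component held 41.2% of the variance and was led by Psmb8, Rsad2, Gbp2, Tapbp, Igtp and Isg15, with Usp18 and Irgm1 on the opposite side. It was computed on deviations that were not scaled, so that genes with a larger SD weigh more in it.

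Single mice carried much of this variation. The mean deviation of the 29 genes was lowest in EXT5 mouse 4 (-0.20, with 27 of 29 genes below their mean), saline control 2 (-0.15, 22 of 29), EXT5 mouse 6 (-0.11, 23 of 29) and EXT9 mouse 6 (-0.11, 17 of 29). It was highest in EXT5 mouse 5 (0.17, with 4 of 29 below). Levels before the removal of group and run had a median of -0.01 in saline controls, 0.02 after BLM, 0.04 with EXT5 and -0.02 with EXT9, and all 4 groups overlapped. Saline control 6, which stood apart in the cell type markers, was at 0.08 with 12 of 29 genes below. In saline control 2 endothelial markers deviated by -0.84 and alveolar type 1 markers by -0.61. The part of cell type markers in the spread was not tested.

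**Figure D4:**
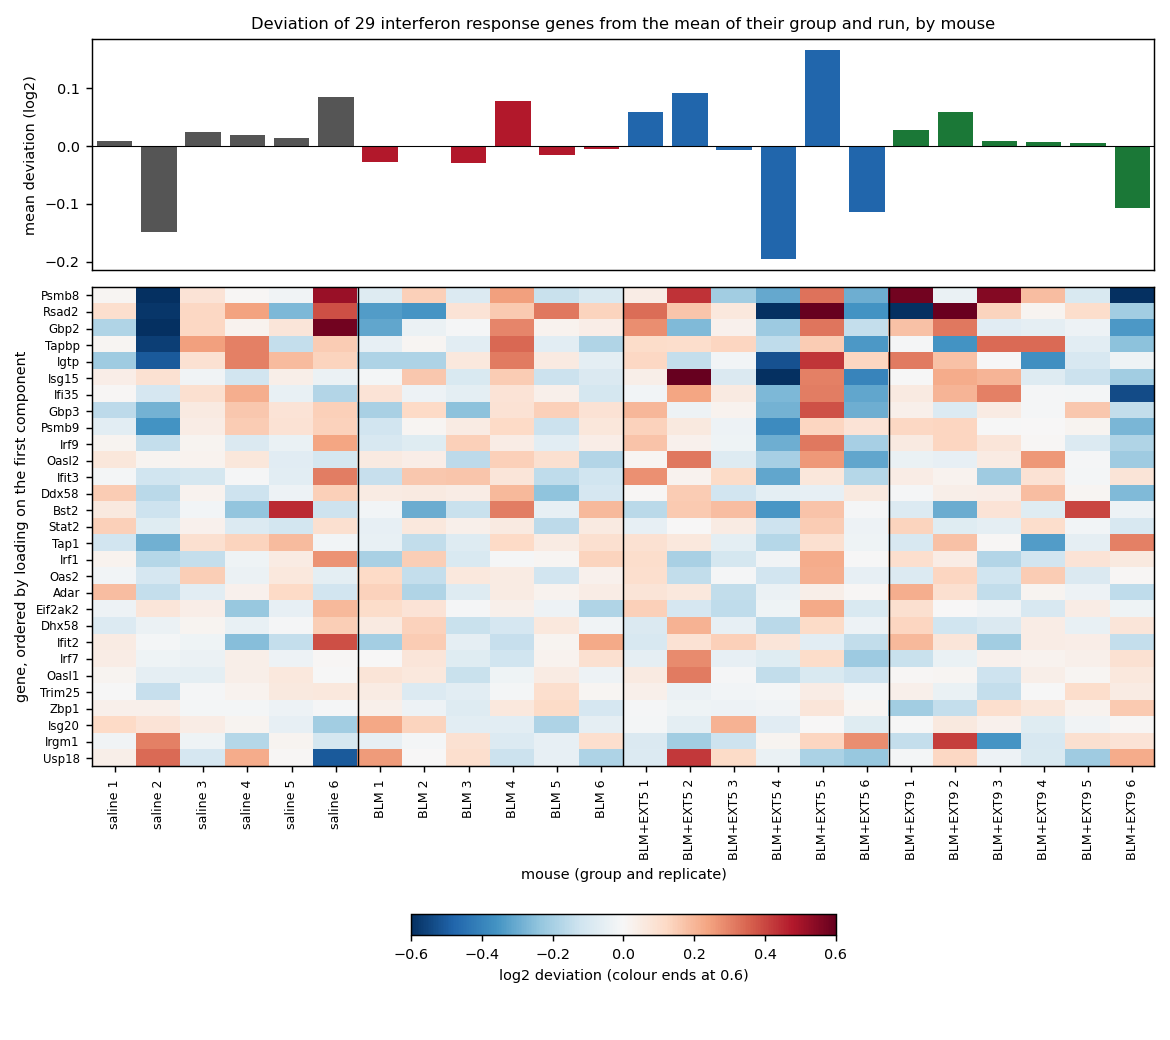
Deviation of 29 interferon response genes from the mean of their group and run in each of the 24 mice (x axis), as the mean over the genes (bars, log2) and for each gene (colour, log2, ordered by loading on the first component). EXT5 mouse 4 at -0.20 and EXT5 mouse 5 at 0.17 mark the ends, and Psmb8, Rsad2 and Gbp2 carry the strongest colours.

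A list of 72 further genes with a tested probe covered interferon ligands, receptors and kinases, negative regulators, factors that induce interferon, and other induced genes. Each of these genes was read from 1 probe, whereas the shares of all probes given beside them count every tested probe. After BLM alone 0 of 72 were called, where 0.473% of all probes were. EXT5 had 3 higher and 1 lower than saline controls (5.56%, compared with 10.9% of all probes), and EXT9 had 6 higher and 5 lower (15.3%, compared with 16.1%). Relative to BLM-treated mice the counts were 1 higher and 1 lower with EXT5 (2.78%, compared with 4.29% of all probes) and 1 higher and 4 lower with EXT9 (6.94%, compared with 5.11%). The median difference over the list lay between -0.00 and 0.02 in all 6 comparisons, and 0 of 72 were called between the compounds, where 0.446% of all probes were. Parp14, a mono-ADP-ribosyltransferase, differed from its level after BLM by -0.55 ± 0.09 with EXT5 (adjusted p = 0.0024, limma) and by -0.51 ± 0.09 with EXT9 (adjusted p = 0.0029). Ifi27l2a, a small mitochondrial and nuclear protein, was higher by 0.54 ± 0.11 and 0.44 ± 0.11 than in BLM-treated mice (adjusted p = 0.011 and 0.026, limma) and by the same amounts than in saline controls.

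Parts of the pathway upstream and downstream of the members also differed singly. Socs3, a feedback inhibitor of cytokine receptors, was higher by 0.64 ± 0.14 with EXT9 than in saline controls (adjusted p = 0.0045, limma). Tlr7, an endosomal sensor of single-stranded RNA, was higher by 0.46 ± 0.13 with EXT5 and 0.57 ± 0.13 with EXT9 (adjusted p = 0.026 and 0.0059, limma), and macrophage markers were higher in the same comparisons. Ifi27 was higher by 0.38 ± 0.09 with EXT5 (adjusted p = 0.0074, limma). The MHC class I gene H2-K1 was higher by 0.43 ± 0.13 with EXT9 (adjusted p = 0.032, limma), whereas Tap2, the partner of Tap1 in the peptide pump, was at -0.49 ± 0.13 with EXT9 against saline controls and -0.48 ± 0.13 against BLM-treated mice (adjusted p = 0.011 and 0.030). Cmpk2, a nucleotide kinase encoded beside Rsad2, was at -0.40 ± 0.11 and -0.39 ± 0.11 in the same comparisons (adjusted p = 0.015 and 0.036, limma). With EXT9, Tap1 and Tap2 thus differed in opposite directions from saline controls, as did Ifit3 and Ifit2. Against BLM-treated mice, neither Tap1 nor Ifit2 was called with EXT9.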

How the data were processed

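RNA of distal lung was hybridised to Illumina mouse bead arrays, 1 array per mouse (24). The deposited intensity values are linear and had been quantile normalized by the authors, separately for each of 2 runs of arrays. Runs were recognised from the values, since arrays of 1 run share their sorted distribution. Of a further non-normalized table, 48 columns matched no sample label and were not used. Here log2 was taken (pseudocount 0) and limma 3.58.1 (R 4.3.3) was fitted to all 24 arrays with group and run, with Benjamini-Hochberg adjustment over the 22640 brighter probes. The number of mice limits the precision. Nothing in the sources says that mice were pooled or sampled more than once. Probes of 1 gene were kept apart in the tests of the interferon response genes. The cell type markers, the list of further genes and the variation between mice used 1 probe per gene. Other probes of those genes are not covered by those results. Full values are given for every called probe and, where a role had none, for its probe with the smallest p. The members and lists were chosen with earlier results of these data known. The model was tested on simulated data. Alternatives were other normalizations, filters, weights, runs, groups, a replicate block and each mouse left out.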

Additional observations from a re-analysis of the deposited data

Results flagged for a closer look

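In 5 of 52 groups of values that were looked at, 1 mouse lay far from the other 5 of its group (Dixon's ratio), and chance gives about 1 in 20. Ifit3 (ILMN_2944666) read 10.70 in EXT9 mouse 3, with the nearest EXT9 mouse at 10.90. Trim25 (ILMN_2480463) read 10.17 in saline control 2, with the nearest at 10.33. Isg20 (ILMN_2735615) read 7.85 in EXT5 mouse 3, with the nearest at 7.64. Bst2 (ILMN_1224110) read 9.04 in saline control 5, with the nearest at 8.68. The mean level of the 29 interferon response genes was -0.13 in EXT9 mouse 6, with the nearest at -0.02.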

How the results depend on the processing

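Among 612 recalculations of the called probes, 0 turned direction. Of 205 medians over the probes, 0 moved by more than the SD between mice of the mean member level (0.0857). In the main fit the medians of the 51 probes lay between -0.05 and 0.03. All were smaller in size than this limit, which therefore cannot show whether a median changed direction. Counts of called probes did move. The share of all probes called is given here for the main fit alone. The counts under other settings are therefore not a result about the interferon response genes. BLM against saline went from 0 to 1 with array weights (Eif2ak2), and to 0 to 2 when a mouse was left out. EXT5 against saline went from 5 to 2 in the second run alone and 1 with the compared groups alone (3 to 5 with a mouse left out), and EXT9 against saline from 6 to 11 with no run term and 1 with the compared groups alone (5 to 7). EXT5 against BLM went from 4 to 1 in the second run alone, 2 with no filter on dim probes and 2 with the compared groups alone (1 to 6 with a mouse left out), and was 5 with no run term and 6 with array weights. EXT9 against BLM went from 3 to 5 with no run term, 1 in the second run alone and 5 with array weights (1 to 4). With no run term the probes gained for EXT9 against saline were of Trim25, Adar, Isg20, Zbp1 and Ifit2 (second probe), with adjusted p = 0.032 to 0.047 (limma). The count of 0 between the compounds was the same throughout. The cause of these changes was not tested, other than that smaller sets of arrays hold fewer mice. Replicate numbers did not pair the mice (mean correlation of same-numbered mice -0.12 to 0.05), and a replicate block gave 5 calls for EXT9 against BLM, 3 for EXT5 against BLM, and the main counts elsewhere. Signals near 6.5 were at background, where changes cannot be seen.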
